A study of Arabidopsis thaliana with 3 samples.

Results

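The brightest nuclear transcripts of whole Arabidopsis thaliana plants were examined as 267 probe sets, out of 22810 on the array and 22746 without control probe sets. They were selected by signal. Each had a MAS5 signal of at least 1500 on all 3 arrays and lay within 2-fold of the water array on both 2,4-D arrays. Organelle-encoded genes and 7 gene families (ALDH, BGLU, GSTU, EXP, XTH, TET and UGT) were left out where the gene of a probe set was listed. A MAS5 signal combines the probes of a probe set into 1 intensity on a linear scale, and it also depends on how well those probes hybridise. Signals of different probe sets are therefore given as brightness and are not ordered as amounts of transcript. Both the signals and the differences from the water array chose these probe sets, so all of their values stand here as a description without a test.

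The plants were of the Col-0 accession, were grown for 14 days on medium with 1.5% sucrose under a photoperiod of 16 hours after 48 hours of cold and dark, and had 4 rosette leaves, the stage coded 1.04. They were flooded for 1 hour with 1 mL of water, which gave 1 array, or with 1 mL of 1 mM 2,4-D brought to pH 7.0, which gave 2 arrays. 2,4-D (2,4-dichlorophenoxyacetic acid) is a synthetic auxin used as a herbicide. Whether separate plants gave the treated arrays is not stated, so the spread between them may be technical, and the lone water array has no measured spread. Total RNA of whole plants was hybridised, and fewer cells of a type cannot be told apart from less RNA per cell.

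In a green plant, a few processes account for much of the messenger RNA. Nuclear genes supply most proteins of the photosystems and of their antennae, which catch light and drive electron transport in the thylakoid membrane. They also supply the enzymes of the Calvin cycle, which fixes carbon dioxide, and of photorespiration, which recovers carbon after Rubisco has bound oxygen in its place. Ribosomal proteins, translation factors, histones and enzymes of glycolysis are other products of highly expressed nuclear genes.

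The members made up 1.17% of the probe sets but carried 26.4% of all signal with water, 22.8% on the first 2,4-D array (replicate 1) and 27.2% on the other (replicate 2). Their median signal was 2797 on the water array, with a range of 1506 to 8801. It was 2408 on replicate 1, from 1503 to 6719, and 2837 on replicate 2, from 1500 to 12860. The upper end therefore differed more between the treated arrays than the middle did. Among all 22746 probe sets without controls, members or not, signals of at least 5000 were found for 43 on the water array, 11 on replicate 1 and 41 on replicate 2.

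A signal of 1500 or more was present on all 3 arrays for 275 probe sets, and 0 of them differed by more than 2-fold from the water array on either treated array. The 2-fold bound thus removed nothing. The organelle rule removed 7 plastid-encoded probe sets, and the family rule removed PYK10, whose other name is BGLU23. PYK10, a beta-glucosidase of root ER bodies, lay at 2240 on the water array and at 2985 and 2439 on the treated ones. Whether a probe set is organelle-encoded or belongs to a left-out family could be told only where its gene was listed. Unlisted probe sets are counted as nuclear throughout, and some may not be. Another 164 probe sets reached 1500 on at least 1 array but not on all, and 22 nuclear ones among them were over 2-fold from water on at least 1 treated array, 12 brighter and 10 dimmer on both. A probe set that fell over 2-fold had to start at 3000 or more to stay above the floor, so the absence of such members is partly set by the rule.

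Among members with a single listed gene, those just above the floor were AT1G64510 (1920 with water, 1813 and 1500 with 2,4-D), PGY1 (2219, 1503 and 1690) and AT3G05730 (1511, 1881 and 1517). Just below it were AT5G48490 (2087, 1469 and 1537), AT2G37190 (1442, 2016 and 2237) and AT2G25450 (1774, 1441 and 1817). These neighbours overlap in brightness, and the floor has no meaning beyond the selection. Nearest the 2-fold bound on a single array were AT5G56710, PRXR1 and AT2G10940, given below.

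Of the 267 members, 83 were listed with 1 gene in the platform's naming table, 14 with several genes and 170 with none. The unlisted share was 63.7%, against 55.1% of the 572 nuclear probe sets with signals of 500 to below 1500 on all arrays and 38.4% of all probe sets. An unlisted probe set is unnamed here and is not one without a gene. The 10 members with the highest geometric mean signal were all unlisted, and the first, probe set 256309_at, had 8801 with water and 6719 and 12860 with 2,4-D. Probe sets whose ID ends in _s_at, which match more than 1 transcript by design, were 30 of the members (11.2%) and 4.11% of all probe sets. Their signals cannot be divided among the genes they share.

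A name that tells more than a locus number or a clone was found for 27 of the 97 listed members (27.8%), against 12.4% of the 13939 listed nuclear probe sets. The other 70 are known here by a locus number alone, and no role is given to them. The makeup by function therefore rests on 27 probe sets, of which 24 carried 1 gene. By words in the listed symbols and synonyms, 4 of the 83 members with 1 gene belonged to light harvesting and the photosystems (4.82%). These words matched 5 listed nuclear probe sets with 1 gene on the whole array (0.0372%). Most listed probe sets have no name to match, and members had a name more often, so these shares are no measure of enrichment. Another 4 members belonged to carbon fixation and photorespiration. These were all 4 probe sets with 1 gene on the array that the words of that class matched. The redox class held 2 members (PRXR1 and ATHM2), glycolysis and respiration 2 (GAPC2 and TPI), and amino acid and methyl group metabolism 1 (SAMDC). Both histone members were probe sets for several genes.

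The words for ubiquitin, the cytoskeleton, chaperones, water channels, cell wall proteins, stress proteins, ribosomal proteins and translation factors matched no member. This does not count those functions. PGY1, a ribosomal protein gene described below, did not match its class, most members have no name to match, and some words also matched unrelated names elsewhere on the array, such as PIP (proline iminopeptidase) under water channels. The number of probe sets per class on the array is therefore given for the photosynthesis classes alone. Symbols that begin with PSA, PSB, LHC, CURT1 or ATPC were also counted as light-reaction genes, a choice made after the data were seen. That class then had 9 members of the 14 probe sets with 1 gene that matched on the array. Together with carbon fixation, where 4 of 4 matched probe sets were members, this gave 13 photosynthesis genes among the 24 singly named members. On the whole array 1735 of the 13939 listed nuclear probe sets had a name, including those with several genes. Because of the late choice of symbols and the uneven naming, nothing is read from these counts.

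**Figure D1:**
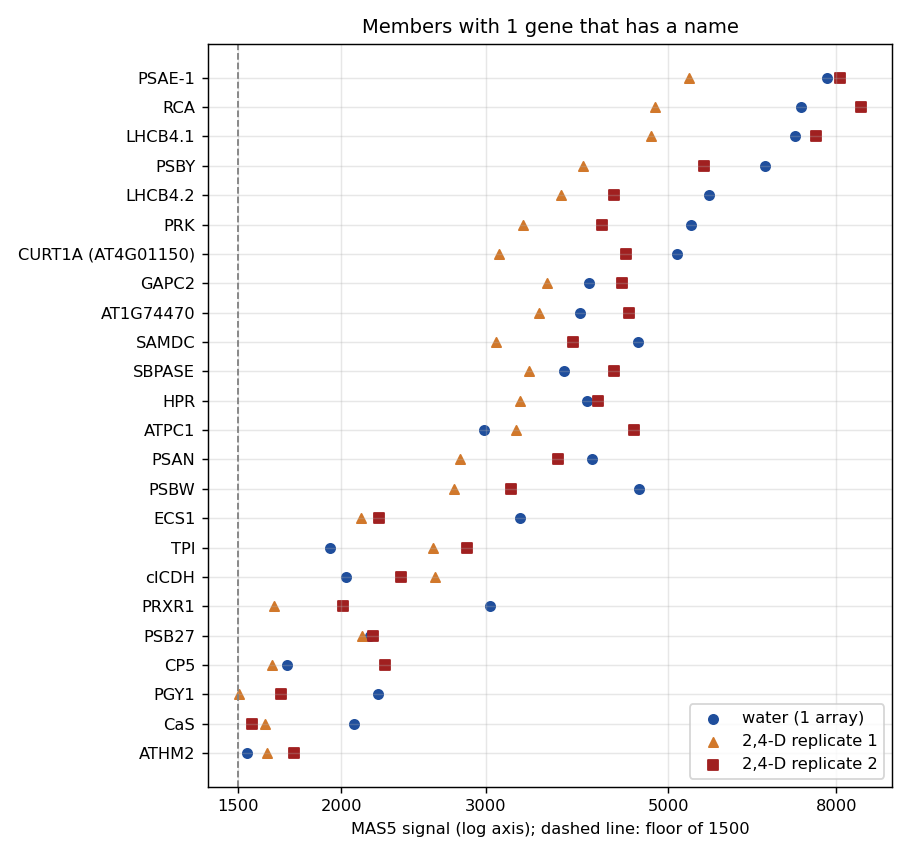
MAS5 signal on a log axis (x) of the 24 members with 1 gene that has a name (y, ordered by geometric mean), with 1 point for each array and the floor of 1500 as a dashed line. Replicate 1 (triangles) lies left of replicate 2 (squares) in all 13 photosynthesis genes, and TPI and ATPC1 have both treated arrays right of water while PRXR1 and PSBW have both left of it.

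Photosystem I was represented by PSAE-1 and PSAN. PSAE-1 (AT4G28750) encodes a subunit on the stromal side of the photosystem, where ferredoxin docks, and had signals of 7801 with water and 5291 and 8090 with 2,4-D. PSAN (AT5G64040), a subunit on the lumenal side, where plastocyanin binds, had 4034, 2788 and 3672. For PSAE-1 the water value lay between the treated arrays, while for PSAN both treated arrays were dimmer (log2 difference -0.33, with -0.53 on replicate 1 and -0.14 on replicate 2).

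Photosystem II was represented by the small subunits PSBY and PSBW, the assembly factor PSB27 and the minor antenna proteins LHCB4.1 and LHCB4.2, both forms of CP29. PSBW (AT2G30570) had signals of 4601 with water and 2742 and 3217 with 2,4-D, the lowest log2 difference of the photosynthesis genes at -0.63 (-0.75 and -0.52). PSBY (AT1G67740) had 6544, 3942 and 5526. Both treated arrays lay below water for each. LHCB4.2 (AT3G08940) had 5596, 3700 and 4294, also dimmer on both, whereas LHCB4.1 (AT5G01530), with 7133, 4763 and 7549, had the water array between the treated ones. PSB27 (AT1G03600), which helps to build and repair the photosystem, had 2166, 2123 and 2188, the closest agreement of the 3 arrays among the named photosynthesis genes.

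The thylakoid is also shaped and coupled to ATP synthesis by nuclear gene products. CURT1A (AT4G01150), which bends the membrane at the margins of grana, had 5126 with water and 3110 and 4443 with 2,4-D. CaS (AT5G23060), a calcium-sensing thylakoid protein that takes part in stomatal closure, had 2076, 1615 and 1558. Both were dimmer on each treated array. ATPC1 (AT4G04640), the gamma subunit of the chloroplast ATP synthase, had 2987, 3264 and 4538 and was the sole one of the 13 photosynthesis genes that was brighter on both, with log2 differences of 0.13 and 0.60. AT1G74470, listed as geranylgeranyl reductase, which makes the phytyl chain of chlorophyll, had 3908, 3479 and 4474, with the water value between the others.

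The other probe sets with 1 gene that the class words or symbols matched as light-reaction genes were not members. CURT1C (AT1G52220) missed the floor on 1 array, with 1667 with water and 1234 and 1572 with 2,4-D. LHCB4.3, the third CP29 form, had 190, 154 and 157. CURT1D (AT4G38100) had 123, 175 and 161, ATPC2 had 31.3, 37.0 and 35.9, and LPA19, a relative of PSB27, had 123, 90.8 and 89.8. Bright and dim probe sets thus occurred within the LHCB4, CURT1 and ATPC families, with the reservation that probe sets differ in how well they hybridise.

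The Calvin cycle enzymes among the members were RCA, PRK and SBPASE, and photorespiration was represented by HPR. RCA (AT2G39730), Rubisco activase, had 7242 with water and 4809 and 8579 with 2,4-D, the widest gap between the treated arrays among the singly named genes, at 0.83 log2 units. PRK (AT1G32060), phosphoribulokinase, which makes the acceptor of carbon dioxide, had 5329, 3329 and 4150 and was dimmer on both (log2 difference -0.52, with -0.68 and -0.36). SBPASE (AT3G55800), a phosphatase that helps to regenerate that acceptor, had 3730, 3383 and 4296. HPR (AT1G68010), the peroxisomal hydroxypyruvate reductase, had 3985, 3300 and 4105. For RCA, SBPASE and HPR the treated arrays fell on opposite sides of water.

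CaS and AT1G74470 carry no class word or symbol and are not counted with the 13 photosynthesis genes. Across those 13 the median log2 difference was -0.25, beside -0.10 for all members and -0.14 for all probe sets. Replicate 1 was below water in 12 of 13 and replicate 2 in 6 of 13. Both arrays were dimmer in 6, both brighter in 1, and replicate 2 was brighter than replicate 1 in 13 of 13. Their median was -0.58 on replicate 1 and 0.01 on replicate 2. Against the median of all members in the same brightness range on the same array, the group's median was -0.04 on replicate 1 and -0.18 on replicate 2, so the array on which the group stood lower depends on the measure. These genes are bright even among the members, 12 of 13 having a geometric mean of at least 3000 against 105 of all 267, and the treated arrays differ most at that end, as shown further on.

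Central carbon metabolism outside the chloroplast was represented by GAPC2, TPI and cICDH. GAPC2 (AT1G13440), a cytosolic glyceraldehyde-3-phosphate dehydrogenase of glycolysis, had 4004 with water and 3554 and 4386 with 2,4-D, on opposite sides of water. TPI (AT3G55440), the cytosolic triosephosphate isomerase, had 1937, 2585 and 2843, brighter on both by 0.42 and 0.55 log2 units. cICDH (AT1G65930), the cytosolic NADP-dependent isocitrate dehydrogenase, had 2026, 2600 and 2363, also brighter on both. For TPI and cICDH the gap between the treated arrays was smaller than the distance of either from water.

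SAMDC (AT3G02470), S-adenosylmethionine decarboxylase of polyamine synthesis, had 4593 with water and 3088 and 3830 with 2,4-D. PRXR1 (AT4G21960), a class III peroxidase, had 3038, 1657 and 2012, a log2 difference of -0.73 (-0.87 and -0.59). Both were dimmer on each treated array, and so was ECS1 (AT1G31580), with 3299, 2115 and 2222. ATHM2 (AT4G03520), the chloroplast thioredoxin m2, had 1536, 1623 and 1751, within 0.19 log2 units of water on both. CP5 (AT1G64720) had 1719, 1650 and 2261, on opposite sides of water.

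PGY1 (AT2G27530), a gene for a protein of the large ribosomal subunit that affects leaf polarity, was dimmer on both arrays, by 0.56 and 0.39 log2 units, from the values given above. The histone probe sets went the other way. The probe set for HIS4 and 7 other histone H4 loci had 1820 with water and 2054 and 2043 with 2,4-D. The probe set for AT5G10980, AT4G40040 and AT4G40030, listed as histone 3.3, a variant deposited outside DNA replication, had 1729, 2089 and 2207.

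Other probe sets listed for the same genes did not all give the same picture. For the histone H4 loci, 4 more probe sets lay below the floor. Of these, 3 were dimmer on both treated arrays (683 with water, 507 and 487 with 2,4-D; 261, 113 and 128; and 300, 183 and 227), and the faintest was brighter (67.4, 79.0 and 125). For the 3 histone 3.3 loci, 1 further probe set was brighter on both (1414, 2003 and 2243) and 1 was dimmer (1385, 1144 and 1133). A direction for these histone genes therefore depends on the probe set. The 2 member probe sets listed for AT4G33865, AT3G44010 and AT3G43980 had 2900, 2341 and 2837, and 2225, 1848 and 1731, so both were dimmer on each treated array. A probe set listed for HPR and AT5G05370 had 371, 285 and 224, dimmer on both, whereas HPR's own probe set had water between the treated arrays. AT4G16980 had a member probe set with 3544, 2827 and 2743 and another with 42.2, 37.6 and 53.5.

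The 70 listed members with a locus number alone had a median water signal of 2452, with a range of 1511 to 6392, and a median log2 difference of -0.13. Both treated arrays were dimmer than water in 37 of them and brighter in 14. The lowest differences among members with 1 gene were those of AT5G56710 (3024 with water, 1640 and 1611 with 2,4-D, a log2 difference of -0.90) and AT2G10940 (3914, 2141 and 2396, -0.79). The highest were those of AT3G58610 (2074, 2830 and 3001, 0.49), TPI, ATPC1 and AT5G19510 (2214, 2631 and 2968, 0.34). For AT5G56710 the treated arrays agreed within 0.03 log2 units, and in all of these genes both treated arrays lay on 1 side of water. AT1G51400, among the 10 brightest members with 1 gene, had 6057, 3944 and 5265. The probe set shared by AT1G07940, AT1G07930, AT1G07920 and AT5G60390 had 6392, 4461 and 7500, with water between the treated arrays. A probe set for XW6 and 3 further loci (AT1G59359, AT1G58983 and AT1G58684) had 1798, 2578 and 2729, brighter on both. AT2G27710 (2427, 2007 and 2623) and AT2G27720 (1770, 1567 and 1601) were the single pair of genome neighbours among the 83 member loci. Over all 12224 listed loci placed there were 5818 adjacent pairs, and nothing is read from the single pair.

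The 170 unlisted members had median signals of 3046 (water), 2610 (replicate 1) and 3051 (replicate 2). Their log2 differences ran from -0.90 to 0.70. Both treated arrays were dimmer in 71 and brighter in 38. The lowest was probe set 255046_at, with 3410 with water and 1756 and 1890 with 2,4-D, and the highest was 251324_at, with 1899, 2577 and 3678. The unlisted members thus reached the same lower end as those with 1 listed gene and a higher upper end, 0.70 against 0.49.

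**Figure D2:**
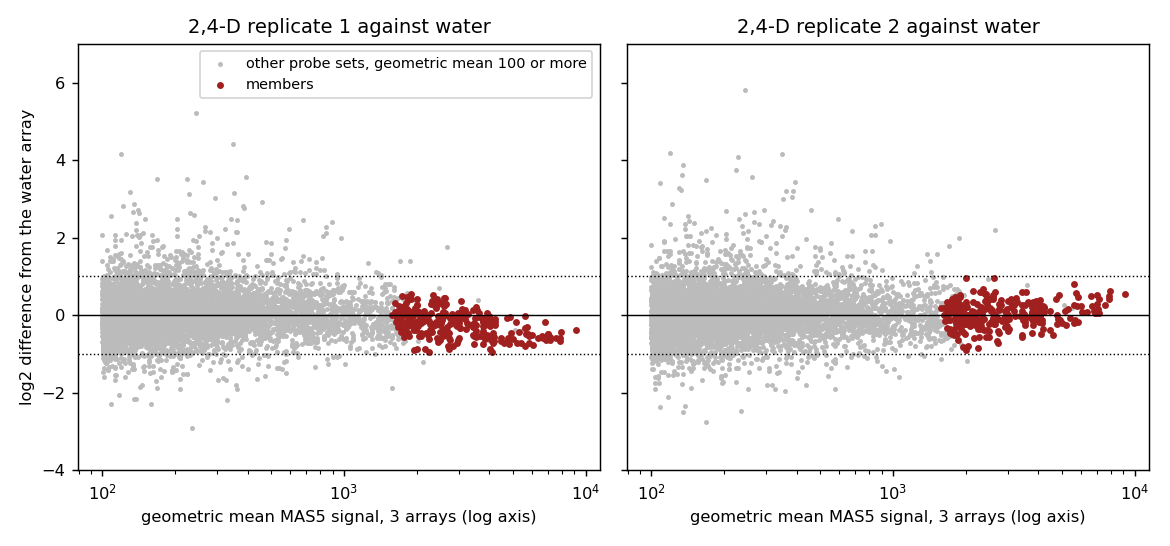
Log2 difference of each 2,4-D array from the water array (y) against the geometric mean MAS5 signal of the 3 arrays on a log axis (x), for the 267 members (red) and all other probe sets with a geometric mean of at least 100 (grey), with 2-fold as dotted lines. The members bend downward with signal on replicate 1 and upward on replicate 2.

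Both treated arrays were dimmer than water in 119 of the 267 members (44.6%) and brighter in 59 (22.1%). Over all 22669 nuclear or unlisted probe sets the shares were 46.4% dimmer and 32.4% brighter. The water signal was at least 25% above both treated arrays in 33 members (12.4%), and both treated arrays were at least 25% above water in 8 (3.00%). These shares were 28.4% and 17.9% over all nuclear probe sets, and 11% and 11.7% over those with signals of 500 to below 1500. The selection used this contrast and its floor acts on all arrays, so nothing is read from these shares. The median log2 difference of the members was -0.10, with quartiles of -0.30 and 0.11.

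**Figure D3:**
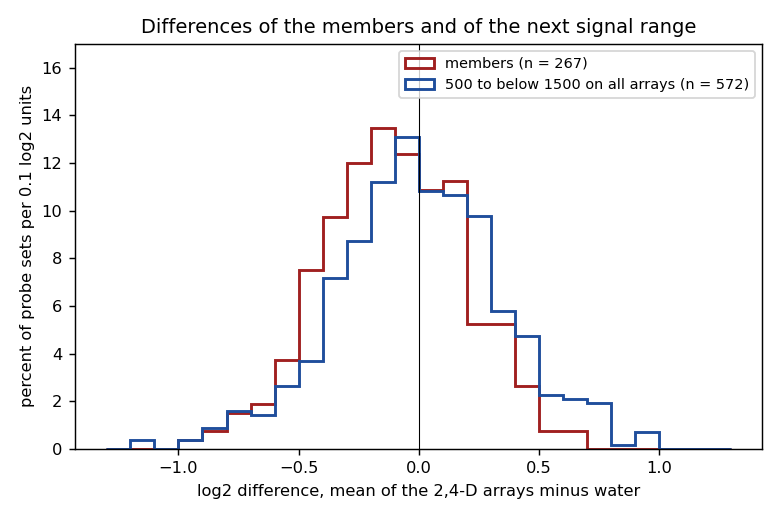
Histogram of the log2 difference, mean of the 2,4-D arrays minus water (x), as percent of probe sets per 0.1 log2 units (y), for the 267 members (red) and the 572 nuclear probe sets with signals of 500 to below 1500 on all arrays (blue). Both centre near 0, with medians of -0.10 and -0.0041.

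In 147 members (55.1%) the gap between the treated arrays was at least as large as the difference of their mean from water. This was so in 32.3% of the probe sets with signals of 500 to below 1500 and in 39.3% of all. The median absolute gap was 0.23 log2 units in the members and 0.13 in the range below them. The gap had a direction, replicate 2 being brighter than replicate 1 in 212 of the 267 members (79.4%), against 49.7% of the range below and 48.7% of all probe sets. In most members the mean of the treated arrays therefore lay no further from water than the like-treated arrays lay from each other. This must be so wherever those arrays fall on opposite sides of water, as in 89 members (33.3%) and in 21.2% of all nuclear probe sets. The distance of a single treated array from water was not compared in this count.

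The gap widened with brightness. In the 65 members with a geometric mean of 1500 to 2000 the median of replicate 2 minus replicate 1 was 0.03 log2 units. It was 0.16 in 97 members from 2000 to 3000, 0.34 in 74 members from 3000 to 5000 and 0.73 in the 31 members of 5000 or more, where replicate 2 was brighter in 31 of 31. In that last group the median difference from water was -0.55 on replicate 1 and 0.23 on replicate 2. The treated arrays thus departed from water in opposite directions at the top of the range. What lies behind this pattern was not tested.

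**Figure D4:**
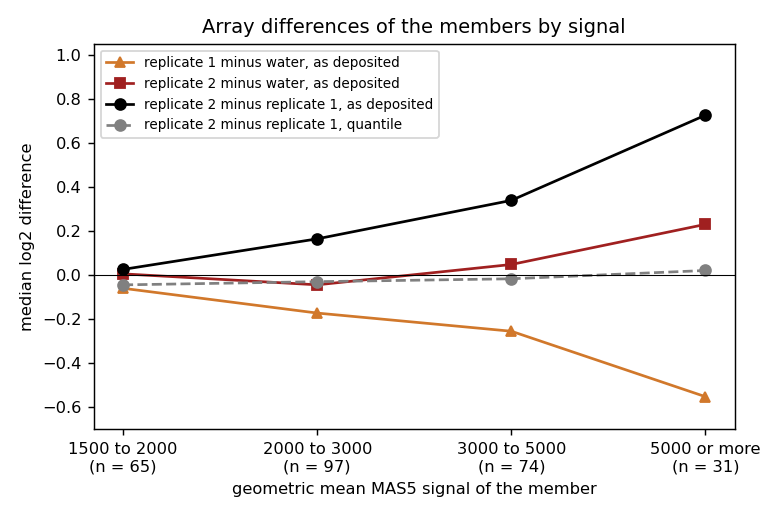
Median log2 difference (y) of the members in 4 ranges of geometric mean signal (x, n under each), for replicate 1 minus water, replicate 2 minus water and replicate 2 minus replicate 1 as deposited, and for the last after quantile normalization (dashed). The black line climbs from 0.03 to 0.73, and the dashed line stays between -0.04 and 0.02. Quantile normalization gives every array the same set of signals, so a dashed line near 0 follows largely from the method.

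The named genes were also set against the median of the members in the same brightness range on the same array. By this measure PSAE-1 was at -0.01 on replicate 1 and -0.18 on replicate 2, LHCB4.1 at -0.03 and -0.15, and RCA at -0.04 and 0.01. PSBW (-0.49 and -0.56), PRK (-0.42 and -0.41), LHCB4.2 (-0.34 and -0.43) and PRXR1 (-0.70 and -0.55) lay below their range on both arrays. TPI (0.59 and 0.60), ATPC1 (0.38 and 0.55) and cICDH (0.53 and 0.27) lay above it on both. The treated arrays were closer together on this scale than against water directly for each of these genes except cICDH, where they were further apart. The measure subtracts the median of the range on each array, so a gap shared by the range is removed by construction. These are 2 treated arrays set against 1 water array, so a deviation of the water array would shift both values alike.

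The median difference of all probe sets was -0.14 as deposited and -0.02 once the arrays had been given 1 median, an upward shift that carries over to every gene. It raised each treated array against water, as for TPI (0.48 to 0.60) and PRK (-0.52 to -0.40). Under this scaling a member brighter on both arrays stayed so by construction, while a dimmer one could be lost. The counts that follow therefore do not show that brighter members held better than dimmer ones. Of the 119 members dimmer on both arrays as deposited, 81 were also dimmer on both after scaling to 1 median and after quantile normalization, and of the 59 brighter ones 57 were also brighter. PSBW, PRK, LHCB4.2, PSBY, PSAN, CURT1A, PRXR1, SAMDC, CaS, ECS1 and PGY1 were dimmer on both under all 3 scalings, and TPI, ATPC1, cICDH, ATHM2 and the histone members were brighter on both under all 3. The mean difference of HPR changed sign, from -0.11 as deposited to 0.0031 and 0.01, as did that of GAPC2, from -0.02 to 0.10 and 0.12.

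As a check of the labelled tissue, 3 of 19 green-tissue markers were listed (LHCB4.1, LHCB4.2 and RCA), and their signals are given above. Of 8 root markers 3 were listed, PYK10 given above and the root-hair expansins EXPA7 (37.0 with water, 15.1 and 15.3 with 2,4-D) and EXPA18 (43.8, 7.98 and 3.55). None of the 8 seed or 4 flower markers was listed, so the check covers few of the markers.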

How the data were processed

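Total RNA of 3 plant samples was hybridised to 1 Affymetrix ATH1 array each. The authors' table holds 1 intensity per probe set and array, not logged. MAS5 is the method that the submitters' processing notes name, without its version or target in the sources used here. No further normalization was applied, and log2 ratios of the deposited signals were taken without an offset. Probe sets were named through the platform annotation and the RefSeq gene table of TAIR10.1, used for names and gene order alone. Members were sorted into 14 functional classes by words in the listed symbols and synonyms. Families were left out by symbol or synonym.

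The genes named are the 10 brightest with 1 gene, the 3 brightest of each class, the 4 highest and 4 lowest differences and those nearest each threshold. The other members with a name and the remaining loci were named after their values were seen. The members and lists were chosen with earlier results of these data known. Sequences were not used here. No test was run, because the selection used the contrast. The number of arrays limits the precision. As a check of the code, the selection was run on simulated data of 22746 probe sets and returned 100% of the simulated members. The simulated members lay well above the floor, so this does not show how well the selection works on these arrays. Alternatives were other floors and bounds, other scalings, an offset of 16 and leaving out each 2,4-D array. The range of 500 to below 1500 was chosen after the data were seen. Python 3.11.15, pandas 2.3.3 and NumPy 2.4.6 were used.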

Additional observations from a re-analysis of the deposited data

How the results depend on the processing

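No paired analysis was possible because the water group held 1 array and shares 1 replicate number with the 2,4-D group. With a floor of 1000 there were 451 members, 118 brighter and 214 dimmer on both arrays, and with a floor of 3000 there were 81, 4 and 27, with 9 in a functional class in place of 15. A 1.5-fold bound left 9 in a class, with a median log2 difference of 0.0315 in place of -0.17. Probe sets with 1 named gene alone gave 83 members, 17 brighter and 42 dimmer. Quantile normalization gave 97 brighter, and a difference of at least 25% on both arrays, added after the data were seen, gave 8 brighter and 33 dimmer. Leaving out a 2,4-D replicate gave 69 to 144 members brighter and 140 to 213 dimmer on the remaining array, and a median of the classed members from -0.57 (without replicate 2) to 0.0622 (without replicate 1). Without replicate 1 the median of all members was 0.01, and without replicate 2 it was -0.21. The other floors, the 1.5-fold bound, the restriction to 1 named gene and the 25% limit changed the counts by construction. With a replicate left out, the counts rest on 1 treated array, and they differed with the array that remained. What lies behind that difference, and behind the change with quantile normalization, was not tested. The number of members was 213 to 284 under the other alternatives, with 268 when PYK10 was kept. Of 126 values for single classes, 106 stayed within 1.5 times or within the spread of the arrays. A class left without a member gave no value and is not among the 126. This befell the histone and redox classes with a floor of 3000, and the histone class with 1 named gene alone.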
